A study of Mus musculus with 5 samples.

Results

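Fatty acid elongases and desaturases were followed in liver tumours without Hdac3 and in control livers. The 10 genes were Elovl1, Elovl2, Elovl3, Elovl5, Elovl6, Elovl7, Scd1, Scd2, Fads1 and Fads2, of 19938 genes measured. They were picked because genes within the Elovl and Scd families did not change alike between tumour and control. Their tumour and control values are therefore given here as a description, with no test. Each gene had 1 probe set under its own symbol, and 0 probe sets joined a member to another gene.

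The values came from 5 Affymetrix gene arrays, each for the liver RNA of 1 male mouse, about 10 months old and kept on regular food. The 3 tumour samples carried a floxed and a null Hdac3 allele with the AlbCre transgene (Hdac3FL/-;AlbCre+). The 2 control samples were normal liver with a floxed and a wild-type allele and the same transgene (Hdac3FL/+;AlbCre+). Cre under the albumin promoter acts in hepatocytes, so control hepatocytes also lose their floxed allele and keep 1 copy of Hdac3. Liver cells in which that promoter is never active keep the floxed allele in both groups. Their other Hdac3 allele is null in the tumour samples and wild-type in the controls. Every tumour was null and every control was normal tissue, so genotype and tumour cannot be told apart. Hdac3 itself had log2 values of 6.78, 6.57 and 6.65 in the tumours, against 8.21 and 8.37 in the controls, and it fell by 1.62 (SE 0.13; limma adjusted p = 0.00298, between 0.000914 and 0.0704 over the alternatives). That call was lost without control 1 or control 2, at 0.0505 and 0.0663. The position of its probes relative to the deleted part was not analysed here. Array medians lay between 5.69 and 5.77 in tumours and between 5.66 and 5.70 in controls, and the number of arrays limits the precision.

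Elongases add a pair of carbons to a fatty acid bound to coenzyme A, in the endoplasmic reticulum, and each Elovl enzyme prefers chains of certain length and saturation. Desaturases place a double bond in the chain, Scd enzymes in saturated chains and Fads enzymes in polyunsaturated ones. In adult mouse liver, Scd1 and Elovl6 shape the oleate made from glucose, and Fads1, Fads2, Elovl2 and Elovl5 build arachidonic and docosahexaenoic acid from dietary precursors. Scd2 is best known from brain and from the liver before weaning. Elovl3 is known from brown fat, skin and male liver.

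Among the enzymes that act on saturated chains, Elovl7 and Elovl3 stood at opposite ends. Elovl7, which lengthens long saturated chains, had log2 values of 10.08, 10.90 and 10.97 in tumours 1, 2 and 3, against 4.77 and 4.62 in the control livers. All tumours lay far above both controls, whose values were close to the lower quartile of their arrays (mean 4.34). The difference was 5.96 on the log2 scale (SE 0.29, 95% interval 5.25 to 6.66, n = 3 and 2), or 62.1-fold. Elovl3, which lengthens saturated and monounsaturated chains, had values of 3.66, 4.02 and 3.999 in the tumours and 9.86 and 9.06 in the controls. No tumour came near either control, and the tumour mean of 3.89 lay under the lower quartile of the tumour arrays (mean 4.31), so it is not shown to be above background. With dim values raised to that quartile, Elovl3 was at least 35.4-fold lower in the tumours, a log2 difference of -5.15, beside -5.56 (SE 0.26) on the values as deposited.

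**Figure D1:**
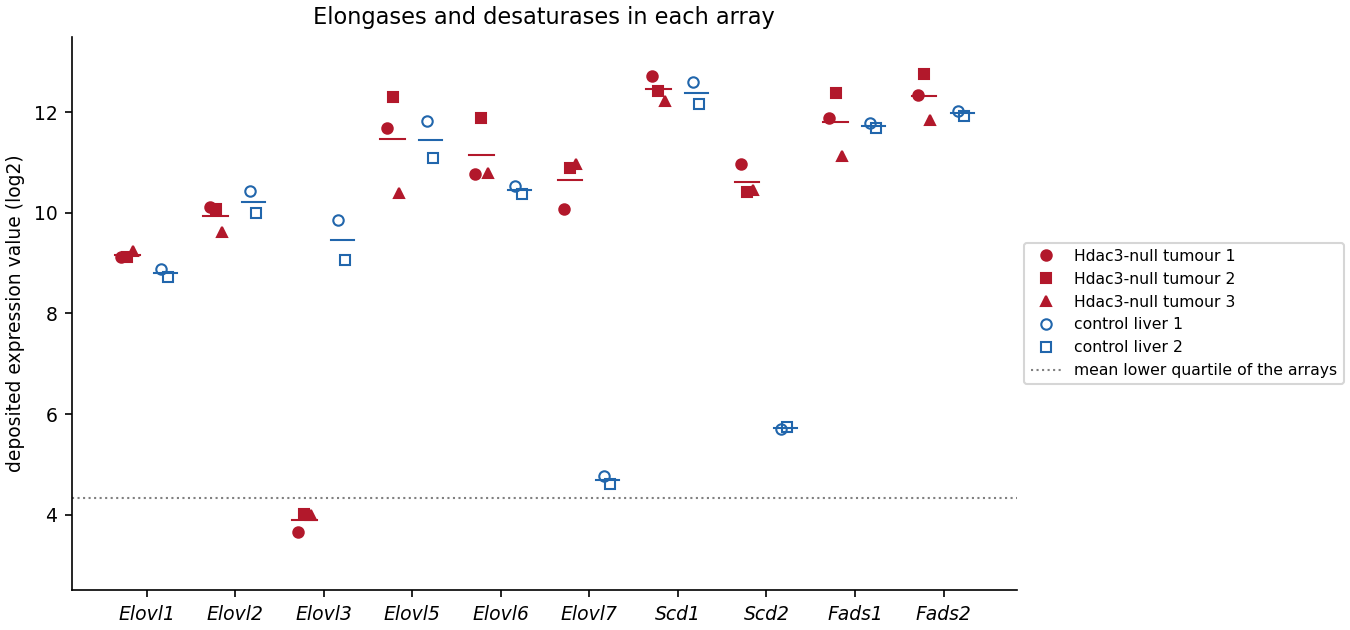
Deposited log2 expression value (y axis) of the 10 elongase and desaturase genes (x axis) in each array, with Hdac3-null tumours as filled red symbols, control livers as open blue symbols and short lines at the group means. Elovl7 (tumours 10.08 to 10.97) and Scd2 (10.41 to 10.96) lie far above the controls, Elovl3 (3.66 to 4.02) far below them, and the dotted line is the mean lower quartile of the arrays.

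The other elongases of saturated chains differed by less than 2-fold. Elovl6, which turns palmitate into stearate, had log2 values of 10.77, 11.89 and 10.80 in the tumours and 10.53 and 10.38 in the controls. The groups did not overlap, but tumour 2 alone accounted for much of the difference of 0.70 (SE 0.36), which was 0.33 without it. Elovl1, which makes the very long chains of sphingolipids, had values of 9.13, 9.12 and 9.25 in the tumours against 8.89 and 8.73 in the controls. Its tumour values were nearly equal and all lay above both controls, at a difference of 0.35 (SE 0.13).

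The elongases of polyunsaturated chains overlapped between the groups. Elovl5, which lengthens the products of Fads2, had log2 values of 11.69, 12.29 and 10.40 in the tumours and 11.83 and 11.08 in the controls. Tumour 2 lay above both controls and tumour 3 below both, so that the difference of 0.01 (SE 0.56) averaged opposite values. Its interval of -1.36 to 1.38 leaves room for a difference of more than 2-fold in either direction. Elovl2, needed for the chains that precede docosahexaenoic acid, had values of 10.12, 10.08 and 9.62 in the tumours and 10.43 and 9.99 in the controls. Only tumour 3 lay below both controls, and the difference was -0.27 (SE 0.22).

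The desaturases of saturated chains also behaved unlike each other, though neither fell as Elovl3 did. Scd2 had log2 values of 10.96, 10.41 and 10.44 in the tumours, against 5.70 and 5.74 in the controls. The tumours lay far above the controls, which differed by only 0.04 from each other, and the difference was 4.88 (SE 0.20, 95% interval 4.40 to 5.37), or 29.5-fold. Scd1, the main Scd enzyme of adult liver, had values of 12.72, 12.42 and 12.22 in the tumours and 12.60 and 12.16 in the controls. The values of the groups were interleaved, and the difference of 0.07 (SE 0.21) had an interval of -0.44 to 0.59.

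The desaturases of polyunsaturated chains also overlapped. Fads2, which starts the conversion of linoleic and alpha-linolenic acid, had log2 values of 12.33, 12.76 and 11.84 in the tumours and 12.02 and 11.93 in the controls. Fads1, which acts after the following elongation, had values of 11.88, 12.39 and 11.12 in the tumours and 11.78 and 11.68 in the controls. For both genes tumours 1 and 2 lay above the controls and tumour 3 below them. The differences were 0.34 (SE 0.27) for Fads2 and 0.07 (SE 0.36) for Fads1.

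**Figure D2:**
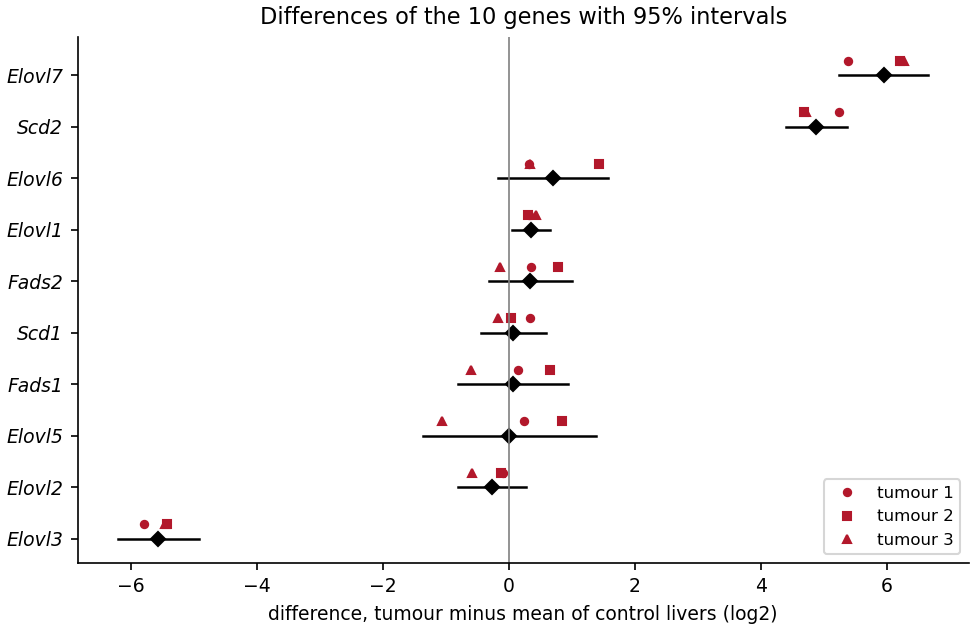
Difference of each gene from the control mean on the log2 scale (x axis), with genes on the y axis, black diamonds for the tumour mean, lines for the 95% interval of the fit and red symbols for the single tumours. Elovl7 (5.96) and Scd2 (4.88) lie at the upper end, Elovl3 (-5.56) at the lower end, and the other 7 genes between -0.27 and 0.70.

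Of the 10 genes, 3 differed by at least 2-fold, beside 9.49% of all genes, and the same number passed an adjusted p of 0.05 in limma's fit over all genes, beside 10.6% of all genes. Of these, 2 were higher, beside 5.6% of all genes, and 1 was lower, beside 4.96%. The 2 groups did not overlap for 5 members, beside 44.2% of all genes. In 4 of these every tumour lay above both controls, beside 21.1% of all genes, and in 1 below, beside 23.1%. Since the members were picked on this contrast, nothing is read from these counts. Their median difference was 0.20, against -0.02 over all genes. For pairs of related genes whose group means lay above the lower quartile of their arrays, a ratio was taken within each array. The log2 ratio of Scd2 to Scd1, set against its mean in the controls, was 4.90, 4.65 and 4.89 in the tumours and -0.24 and 0.24 in the controls. The tumours thus differed less among themselves in the Scd ratio than they did in either Scd gene alone. For Fads2 to Fads1 the ratio was 0.21, 0.13 and 0.47 in the tumours and 0.0013 and -0.0013 in the controls. For Elovl6 to Elovl5 it was 0.08, 0.60 and 1.40 in the tumours and -0.30 and 0.30 in the controls, so that tumour 1 lay within the range of the controls.

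Both gene clusters that hold members lie on chromosome 19, as ordered in the RefSeq annotation of assembly GRCm38.p6. The Scd genes stand in the order Scd3, Scd2, Scd4, Scd1. Scd3, known from skin, rose by 0.67 (SE 0.13; limma adjusted p = 0.0315, between 0.0178 and 0.241 over the alternatives), with log2 values of 5.00, 5.02 and 5.11 in the tumours and 4.49 and 4.26 in the controls. Its control values lay close to the lower quartiles of their arrays, 4.35 and 4.33, with control 2 under its own. The call of Scd3 was lost without control 1, control 2, tumour 1 or tumour 2. Scd4, between Scd2 and Scd1, had a difference of -0.02 with group means under the lower quartile, and its sign turned under repeated quantile normalisation. Scd genes are close in sequence, so probes of one may also bind transcripts of another. In the other cluster, in the order Fads3, Fads2, Fads1, Fads3 itself had log2 values of 7.43, 9.18 and 10.35 in the tumours and 6.81 and 6.39 in the controls. All tumours lay above the controls, but they spanned 2.92 log2 units, and the difference of 2.38 (SE 0.79) did not pass (limma adjusted p = 0.125, between 0.0144 and 0.462 over the alternatives). Without tumour 1, Fads3 did pass, with a difference of 3.16. Among the remaining members of these enzyme families, Elovl4 had a difference of -0.0012 (adjusted p = 0.998), Fads6 of -0.32 (adjusted p = 0.469), and the ceramide desaturases Degs1 and Degs2 of 0.49 (adjusted p = 0.112) and 0.09 (adjusted p = 0.804), with none passing. The sign for Elovl4 and Degs2 varied between alternatives.

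Of the 10 members, 6 are in a RefSeq promoter table of build GRCm38.p6, and Elovl3, Scd1, Scd2 and Fads1 are not. The promoters of Elovl3 and Scd2, whose tumours lay far from the controls, could therefore not be shown. Promoter sequences are shown for the 4 members that have exactly 1 start in that source. Each begins 250 bases before that start and ends before the gene's outermost start, read 5′ to 3′ on the gene's strand. Elovl7 lies at chr13:108214154-108214325 (+), Elovl6 at chr3:129532136-129532385 (+), Fads2 at chr19:10101504-10101753 (-) and Elovl5 at chr9:77917115-77917364 (+). Capitals mark matches to the motifs described after the sequences. The GC and TATA boxes, and Elovl5 through the rule of 1 listed start, were added after a search of the other motifs in Elovl7, Elovl6 and Fads2 had found no match.
Elovl7: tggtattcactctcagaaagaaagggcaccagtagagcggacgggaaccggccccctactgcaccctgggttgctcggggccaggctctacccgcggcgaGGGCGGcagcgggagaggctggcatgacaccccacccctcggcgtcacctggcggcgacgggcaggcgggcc
Elovl6: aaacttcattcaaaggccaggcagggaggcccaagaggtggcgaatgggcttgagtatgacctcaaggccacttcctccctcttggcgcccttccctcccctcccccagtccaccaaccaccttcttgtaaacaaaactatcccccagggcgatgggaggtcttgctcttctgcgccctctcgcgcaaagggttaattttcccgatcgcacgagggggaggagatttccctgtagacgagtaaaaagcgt
Fads2: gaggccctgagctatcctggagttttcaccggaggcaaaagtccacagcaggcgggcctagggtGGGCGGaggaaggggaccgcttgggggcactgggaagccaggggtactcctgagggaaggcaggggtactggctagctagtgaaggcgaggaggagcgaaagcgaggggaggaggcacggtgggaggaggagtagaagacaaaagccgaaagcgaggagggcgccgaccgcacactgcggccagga
Elovl5: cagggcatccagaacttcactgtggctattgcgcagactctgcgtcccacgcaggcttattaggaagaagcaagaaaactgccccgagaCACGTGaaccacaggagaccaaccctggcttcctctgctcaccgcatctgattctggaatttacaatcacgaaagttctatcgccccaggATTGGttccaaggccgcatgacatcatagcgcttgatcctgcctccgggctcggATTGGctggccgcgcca

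The letters searched on both strands were TCACNCCAC for the sterol regulatory element, CACGTG for the E-box, CCAAT for the CCAAT box, TAGGTCA for the core that REV-ERB receptors bind, TGACNNNGC for the antioxidant response element, GGGCGG for the GC box and TATAAA for the TATA box. Elovl5 held 1 E-box and 2 CCAAT boxes on the reverse strand. In windows of 250 bases, 6.02% of 32851 promoters held an E-box and 33.8% a CCAAT box. Fads2 held 1 GC box, as 32.7% of promoters did, and Elovl7 held 1 in its shorter stretch of 172 bases, as did 19.8% of promoters over that length. Elovl6 held 0 matches. The sterol regulatory element, REV-ERB core, antioxidant element and TATA box had no match in these stretches. Over 250 bases they occurred in 1.05%, 2.23%, 10.2% and 12.4% of all promoters, and over 172 bases in 0.67%, 1.52%, 6.28% and 8.13%. None of the motifs overlapped another in these stretches. Elovl7 had the highest share of G and C, 70.3%, a value exceeded by 7.30% of promoters over the same length. The shares were 64.8% for Fads2, 56.4% for Elovl6 and 55.6% for Elovl5. A match is not a binding site, and no match says only that these letters are not in the window.

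The spread among the 3 tumours was not used to pick the members. The range among tumours was 1.90 log2 units for Elovl5, which 1.81% of all genes exceeded, 1.27 for Fads1 (4.77%), 1.12 for Elovl6 (6.18%) and 0.92 for Fads2 (9.49%). At the other end, Elovl1 spanned 0.13, less than 87.8% of all genes, and Elovl3, at its dim tumour level, 0.36. The median over all genes was 0.33. Of the 10 members, 8 spanned more among the 3 tumours than the 2 controls differed, beside 78.9% of all genes, the exceptions being Elovl1 and Elovl3. The controls differed by 0.80 in Elovl3 and by 0.74 in Elovl5. Limma's array weights, which are smaller for arrays that depart more from their group over all genes, were 0.86, 1.32 and 0.41 in tumours 1, 2 and 3. Tumour 3, the lowest in Elovl5, Fads1 and Fads2, thus had the smallest weight.

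Elovl5, Fads1 and Fads2 were highest in tumour 2 and lowest in tumour 3, an order shown by 13.7% of all genes. Tumour 2 was the highest tumour for these 3 genes, Elovl6 and, at its dim level, Elovl3, while it was so for 26.1% of all genes. Tumour 3 was the lowest for Elovl2, Elovl5, Fads1, Fads2 and Scd1, and for 28.4% of all genes. Elovl7 went another way, with its lowest value in tumour 1, and Scd2 had its highest value there. The genes listed under supply of acetyl-CoA, malonyl-CoA and palmitate, the substrates of elongation, were highest in tumour 2 in 11 of 11 cases. Not all of them are suppliers, since Mlycd breaks malonyl-CoA down. Fatty acid synthase (Fasn), which makes palmitate, had log2 values of 11.82, 12.44 and 10.96 in the tumours and 11.20 and 10.98 in the controls. Acaca, an acetyl-CoA carboxylase that makes malonyl-CoA for synthesis, had 10.24, 11.46 and 10.38 in the tumours against 9.52 and 9.43 in the controls. Tumour 2 stood above the other tumours in both genes, as it did in Elovl6. This order among tumours was noticed in these arrays, with 1 tumour behind each value, and was not tested.

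**Figure D3:**
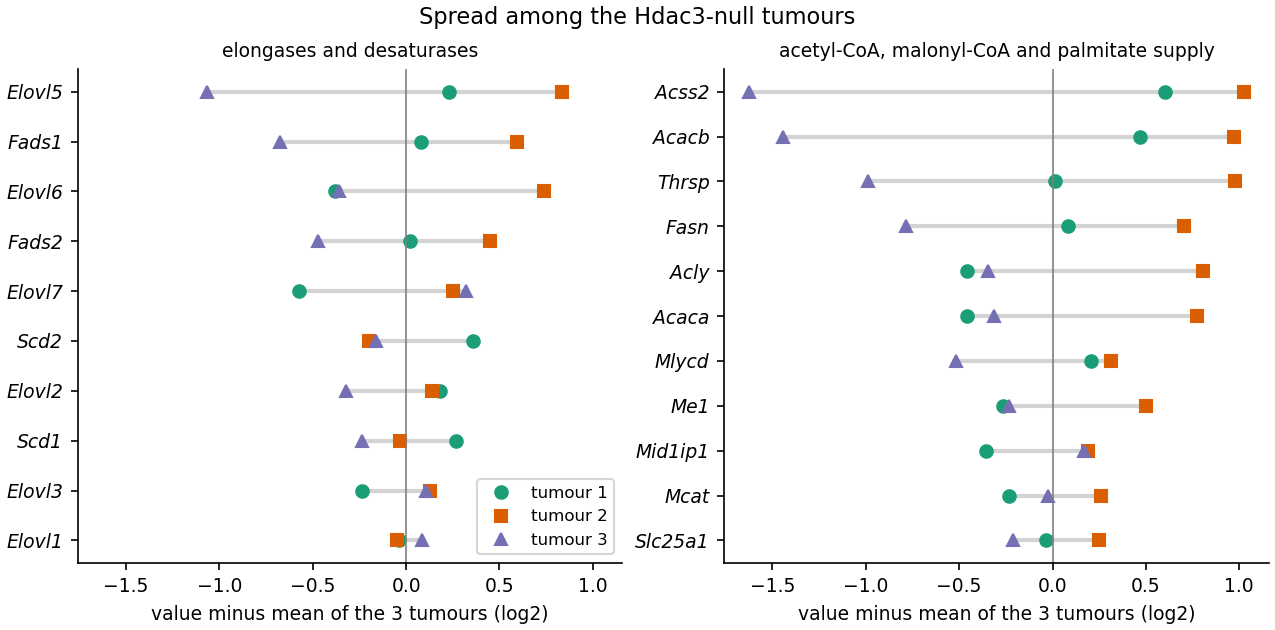
Value of each tumour minus the mean of the 3 tumours on the log2 scale (x axis), for the 10 elongases and desaturases (left) and the 11 genes of acetyl-CoA, malonyl-CoA and palmitate supply (right), with genes ordered by their range. Tumour 2 is the highest for all 11 genes of the supply list and for 5 of the 10 members, among them Elovl5, with a range of 1.90.

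Other genes of fatty acid chain synthesis were examined in lists by role, chosen with earlier results of these data known. The ranges of adjusted p given for them leave out the floor at the lower quartile. Of 77 measured genes (85 listed), 6 rose and 9 fell in limma's fit over all genes, 19.5% in all, beside 10.6% of all genes, and 62 did not pass. Their median difference was -0.19. Without control 1 or without control 2, limma called 0 of the 77, with 20 at an unadjusted p under 0.05 each time, while it called 129 and 108 of all genes. An ordinary test per gene without moderation called 1, Dgat1.

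Of 7 partner enzymes of elongation, 0 passed limma's test, beside 10.6% of all genes (1 at an unadjusted p under 0.05, and 0 in the ordinary test per gene). Their median difference was -0.15. Tecr, which carries out the last reduction of the cycle, had a difference of -0.46 (adjusted p = 0.314), and Hsd17b12, the ketoacyl reductase, of -0.17 (adjusted p = 0.541). Of 6 genes of electron supply to the desaturases, 2 fell, beside 4.96% of all genes, and 0 rose. Cyb5a, the microsomal cytochrome that hands electrons to Scd and Fads enzymes, had log2 values of 11.50, 11.45 and 11.29 in the tumours and 11.98 and 11.97 in the controls, and fell by 0.56 (limma adjusted p = 0.0446, between 0.0222 and 0.258 over the alternatives). Cyb5b, its mitochondrial relative, fell by 0.75 (limma adjusted p = 0.0456, between 0.0210 and 0.295 over the alternatives). The call of Cyb5a was lost when any single array was left out, and that of Cyb5b without any array but tumour 3. Cyb5r1, a cytochrome b5 reductase, had the largest difference of this list, 1.65 (SE 0.46), with log2 values of 7.16, 7.83 and 8.83 in the tumours and 6.16 and 6.42 in the controls. All its tumour values lay above both controls, but it did not pass (limma adjusted p = 0.0812).

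Of the 11 genes listed under substrate supply, 0 passed limma's test, beside 10.6% of all genes. In limma's fit 5 had an unadjusted p under 0.05, and 0 passed the ordinary test per gene. Acaca had a difference of 1.22 (adjusted p = 0.102), Fasn of 0.65 (adjusted p = 0.407) and Acss2, which makes acetyl-CoA from acetate, of -2.45 (adjusted p = 0.109). Among 9 genes that activate or bind fatty acids, 1 rose and 1 fell, beside 5.6% and 4.96% of all genes. Acsl4, which activates arachidonic acid, had log2 values of 10.64, 10.63 and 10.96 in the tumours and 8.89 and 8.999 in the controls, and rose by 1.80 (SE 0.15; limma adjusted p = 0.00316, between 0.000828 and 0.0825 over the alternatives). Slc27a5, a liver transporter and ligase of fatty and bile acids, had 9.40, 9.08 and 8.13 in the tumours and 11.08 and 11.02 in the controls. It fell by 2.18 (SE 0.37; limma adjusted p = 0.0203, between 0.00236 and 0.182 over the alternatives), a call also lost without tumour 2.

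Regulators of these pathways fell in 5 of 16 measured cases, beside 4.96% of all genes, with 0 risen and a median of -0.63. In 14 of the 16 all tumours lay below both controls, beside 23.1% of all genes. Srebf1, the gene of the factor SREBP1 that drives Scd, Elovl and Fads genes in liver, had log2 values of 8.97, 9.55 and 9.40 in the tumours and 10.34 and 10.37 in the controls. It fell by 1.05 (SE 0.20; limma adjusted p = 0.0275, between 0.0129 and 0.213 over the alternatives). Scap, the escort of SREBP proteins, fell by 1.08 (adjusted p = 0.00618), Insig1, which retains them, by 1.12 (adjusted p = 0.0156), Nr1h3, the oxysterol receptor LXR alpha, by 0.93 (adjusted p = 0.0181) and Pparg by 0.81 (adjusted p = 0.0361). Over the alternatives the adjusted p of these genes lay between 0.00221 and 0.241. Nr1h3 was also lost without tumour 2, and Pparg without tumour 1.

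Among 15 genes that use long acyl chains, 4 rose and 1 fell, beside 5.6% and 4.96% of all genes. Cers6, a ceramide synthase that takes palmitate, rose by 1.55 (adjusted p = 0.0067), Lpcat2 by 1.93 (adjusted p = 0.0142) and Lpcat4 by 1.84 (adjusted p = 0.00845), both acyltransferases of lysophospholipids. Gpam, which starts glycerolipid synthesis, rose by 0.95 (adjusted p = 0.0291), and Dgat1, which ends triglyceride synthesis, fell by 0.54 (adjusted p = 0.0374). Over the alternatives the adjusted p of these 5 genes lay between 0.00196 and 0.235. Gpam and Dgat1 lost their calls without tumour 1 or tumour 2, and Dgat1 also with a variance trend and robust prior. Of 6 genes of peroxisomal shortening, the last step of docosahexaenoic acid synthesis, 0 passed limma's test, beside 10.6% of all genes. In limma's fit 3 had an unadjusted p under 0.05, 0 passed the ordinary test per gene, and the median difference was -0.63. Every tumour lay below both controls for 4 of the 6, beside 23.1% of all genes, and above both for 0, beside 21.1%. All calls named for these role lists were lost without control 1 and without control 2.

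**Figure D4:**
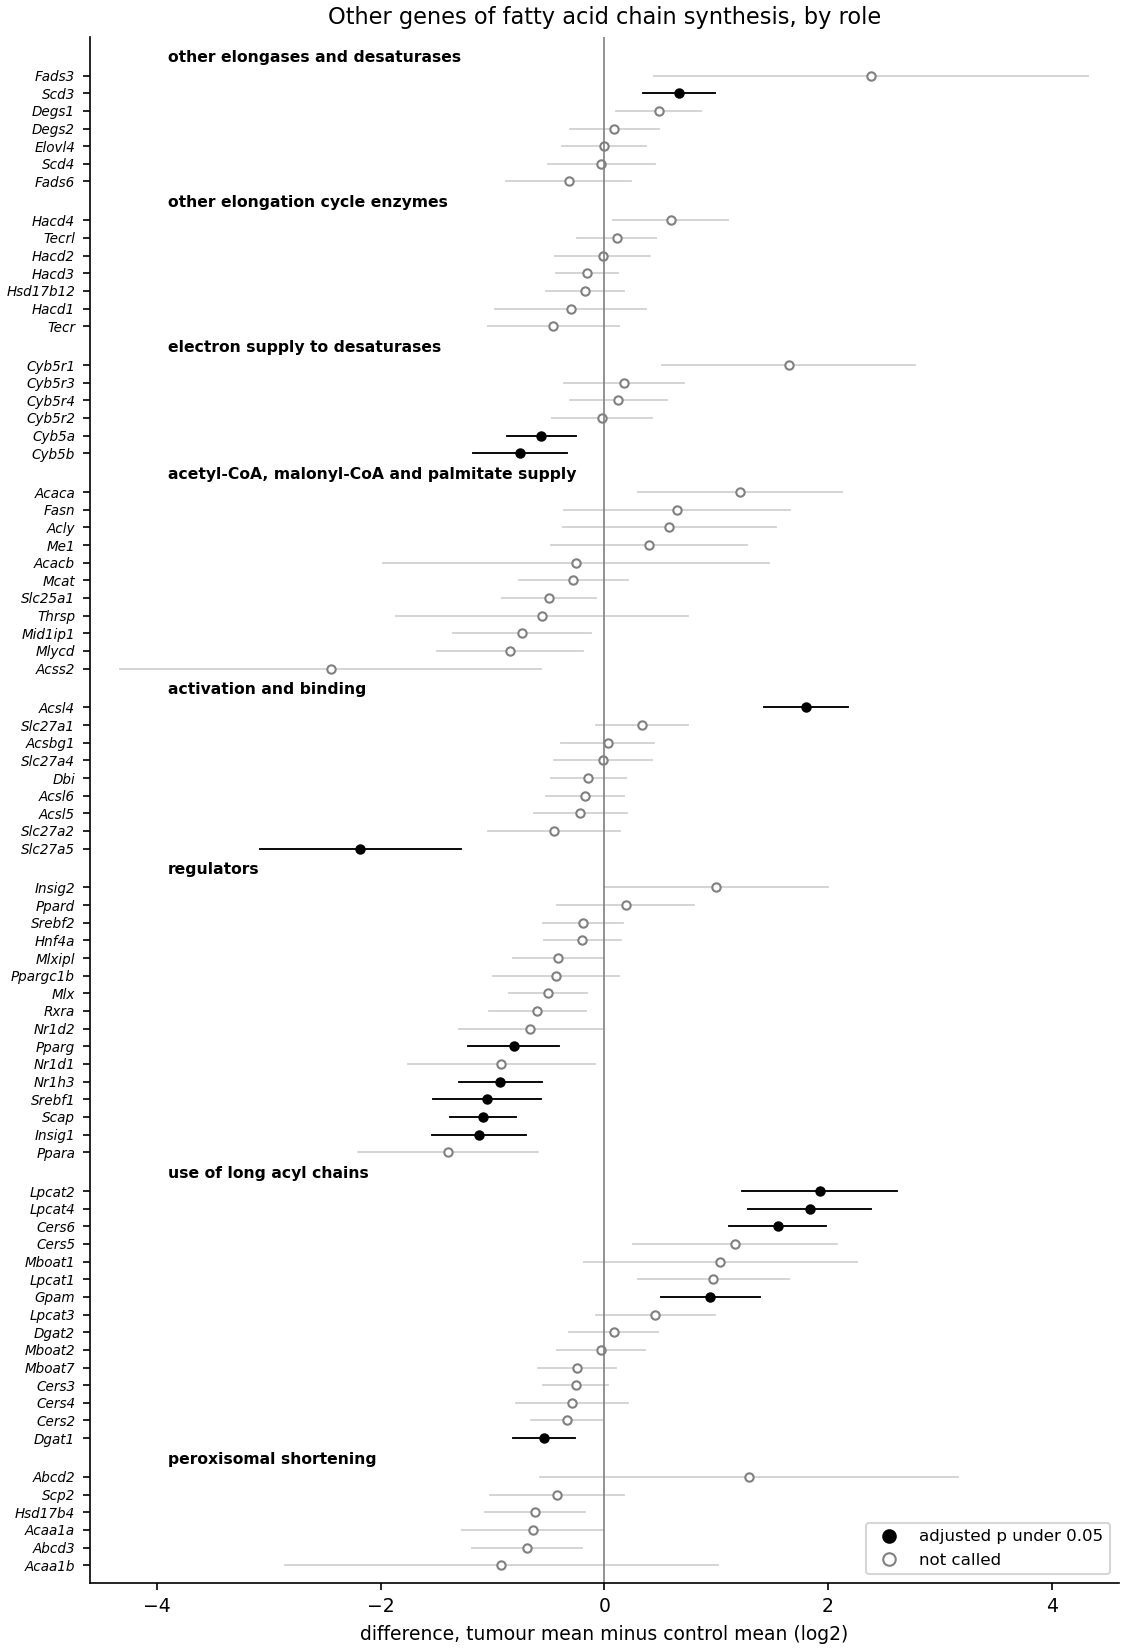
Difference between tumour mean and control mean on the log2 scale (x axis) for 77 other genes of fatty acid chain synthesis, grouped by role down the page, with 95% intervals and filled symbols for genes with an adjusted p under 0.05. Acsl4 (1.80) and Lpcat2 (1.93) are among the 6 risen genes, and Slc27a5 (-2.18) and 5 regulators are among the 9 fallen ones.

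Whole tissue was profiled, so fewer cells of a type and less RNA per cell cannot be told apart. Of 12 macrophage markers, 5 rose (Adgre1, Cd68, Csf1r, Lyz2 and Cd14), beside 5.6% of all genes, and 0 fell. These calls were lost without control 1 and without control 2. Itgam and Trem2 also had every tumour above both controls but did not pass. The remaining 5 overlapped between the groups, among them the markers of resident liver macrophages. Clec4f, a lectin of these cells, had log2 values of 9.28, 6.37 and 5.03 in the tumours and 7.51 and 7.87 in the controls. Vsig4, their complement receptor, had 9.84, 7.34 and 4.55 in the tumours and 7.07 and 7.82 in the controls. Like Clec4f and Vsig4, Cd5l and Marco lay above both controls in tumour 1 and below both in tumour 3. The list's summed linear level lay between 3218 and 6801 in the tumours and between 1345 and 1751 in the controls. It was 6801, 3218 and 5697 in tumours 1, 2 and 3. Scd2 was also highest in tumour 1 and lowest in tumour 2, but its values in tumours 2 and 3 were close (10.41 and 10.44). Among the risen macrophage markers Lyz2 was highest in tumour 1, while Adgre1, Cd68, Csf1r and Cd14 were highest in tumour 3. All of these markers were lowest in tumour 2. Elovl7 was highest in tumour 3 and lowest in tumour 1. Of 6 adipocyte markers, Cidec (lost without either control) and Fabp4 rose, beside 5.6% of all genes, and 0 fell. Fat-storing hepatocytes or macrophages also use these genes. The adipocyte list summed to between 1617 and 2959 in the tumours and between 195 and 298 in the controls. Of the other adipocyte genes, Adipoq and Lep lay under the lower quartile in every array, while Plin1 and Retn lay above it in every array. Plin1 and Retn overlapped between the groups. Of 7 stellate cell and fibroblast markers 1 rose, Acta2, beside 5.6% of all genes. Of the 5 cholangiocyte, 5 endothelial, 7 lymphocyte and 5 neutrophil markers 0 changed by limma's test, beside 10.6% of all genes. In the order named, 2, 1, 3 and 0 of them had an unadjusted p under 0.05, and 0 passed the ordinary test per gene. Every tumour lay above both controls for 5 stellate cell and fibroblast, 3 cholangiocyte, 1 endothelial, 5 lymphocyte and 0 neutrophil markers, beside 21.1% of all genes. Below both controls lay 1 cholangiocyte marker, beside 23.1%. Ttr was the 1 of 5 hepatocyte markers that fell, beside 4.96% of all genes. The calls of Acta2 and of Ttr were lost without either control, and that of Ttr also without tumour 1 or tumour 2. The hepatocyte list summed to between 20861 and 26004 in the tumours and between 29352 and 30620 in the controls. Apoa1, Ttr, Cps1 and Hnf4a had every tumour below both controls, with differences of -0.26, -0.71, -0.86 and -0.20. Albumin (Alb) overlapped between the groups, at 12.77, 12.75 and 12.36 in the tumours and 12.65 and 12.85 in the controls. The part of other cell types in the elongase and desaturase differences was not tested.

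Genes with the most similar profile over the 5 arrays were found by the root mean square difference of gene-centred log2 values. Nearest to Elovl3 were Hsd3b5 (0.36), the urinary protein gene Mup21 (0.62) and the succinate receptor gene Sucnr1 (0.65). Hsd3b5, a steroid dehydrogenase of male liver, had log2 values of 4.11, 4.25 and 4.14 in the tumours and 10.14 and 10.21 in the controls. Nearest to Elovl7 were Lcn2 (0.51), the tight junction gene Cldn6 (0.57) and the peptide hormone gene Apela (0.61), and to Scd2 the macrophage elastase Mmp12 (0.29), Mfge8 (0.36) and Lcn2 (0.38). Lcn2, an iron-binding secreted protein, was near both, with 12.46, 11.93 and 12.58 in the tumours against 6.68 and 7.03 in the controls. Nearest to Scd1, whose profile is nearly flat, were Rab6b (0.04), Ckap4 (0.04) and Kcnk5 (0.05). These names depend on the measure, since with Pearson correlation 0 of the 3 were shared for Elovl3, Elovl7 and Scd2, and 1 of 3 for Scd1.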

How the data were processed

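For each of 5 arrays the authors deposited a log2 value per probe set. The submitters' processing notes name GCOS and RMA without versions, and the values are taken as RMA output, in which large differences are compressed. Annotation and genome build were not given in the sources used here. Columns of other samples numbered 0.

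Of 28853 probe sets, 21789 had 1 gene symbol in the platform's probe table. For genes with several, the probe set with the highest mean was used, giving 19938 genes with no filter. Tumour minus control was estimated by lmFit and eBayes (limma 3.58.1, R 4.3.3), on all 5 arrays, without covariates (residual degrees of freedom 3, prior 2.98). Two-sided p-values were adjusted over all genes after Benjamini and Hochberg, at a threshold of 0.05. An exact permutation test of 3 against 2 arrays cannot go below p = 0.1. The labels call the arrays biological replicates and give no batch. The members and gene lists were chosen with earlier results of these data known.

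The genes named are the 10 members, Hdac3, every other elongase and desaturase, the called genes of each role list with the smallest p, and the 3 nearest profiles of 4 members. Fasn, Acaca, Acss2, Tecr, Hsd17b12, Cyb5r1, Alb and the other markers named were chosen after their values were seen. Alternatives were repeated quantile normalisation, a common array median, dim genes left out (lowest 40%), the mean of probe sets and a variance trend with robust prior. The others were array weights, a replicate block, no moderation, a floor at the lower quartile and leaving out each array. The floor was not included in the counts or in the adjusted p ranges of genes in the role lists. The GC and TATA boxes and the rule for which promoters to print were chosen after a search without them found no match. The fit was tested on simulated data. Tables were joined with Python 3.11.15 and pandas 2.3.3, and figures drawn with matplotlib 3.10.9.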

Additional observations from a re-analysis of the deposited data

How the results depend on the processing

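The count of genes changed in the whole fit, 2106, was 3252 with array weights, 18 without moderation, and between 108 and 2719 when 1 array was left out, the lowest without control 2 (129 without control 1, 1266 without tumour 2). The 15 pathway genes were 1 without moderation and between 0 and 21 when 1 array was left out, with 0 without control 1 and 0 without control 2, where the remaining control is taken to vary as the tumours do. Both counts stayed within 1.5 times under the other alternatives computed for them, which did not include the floor at the lower quartile. With a common array median, 1001 genes rose and 1125 fell, against 1117 and 989. With the replicate number as a block the counts were 2376 and 16, and the calls of Scd3, Cyb5a, Cyb5b, Pparg, Dgat1 and Ttr (adjusted p = 0.0622) were lost. Ttr was also lost with repeated quantile normalisation (0.0508) and with the floor (0.0631), Cd14 with the floor (0.0618) and Dgat1 with the variance trend (0.0586). Without moderation every called marker and Hdac3 were lost. Deviations of same-numbered arrays from their group means correlated at 0.00 and -0.01. With 2 controls, whose deviations mirror each other, this cannot show whether the shared numbers pair the arrays. Elovl4, Scd4 and Degs2, none of them called, changed sign. Elovl4 (-0.0012) was 0.0123 with repeated quantile normalisation, 0.0028 with array weights, 0.0503 with the block and between -0.125 and 0.123 with 1 array left out. Scd4 (-0.0246) was 0.0175 with repeated quantile normalisation and between -0.232 and 0.183 with 1 array left out. Degs2 (0.0887) was -0.0265 with the block and between -0.0265 and 0.185 with 1 array left out. Differences of Elovl7, Scd2 and Elovl3 kept their sign under all 11 alternatives computed for them, between 5.79 and 6.24, 4.70 and 4.98, and -5.96 and -5.15, Elovl3 being -5.17 without control 1 and -5.96 without control 2. Those of Elovl5, Scd1 and Fads1 took either sign. The causes of these changes were not tested. Values under the lower quartile are not shown to be above background.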
